A study of Oryza sativa with 12 samples.

Results

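Rice roots of line OE1, which overexpresses the transcription factor gene OsERF106MZ, were compared between a normal medium with 0 mM NaCl and a medium with 150 mM NaCl, called NaCl-treated here, to show how the root transcriptome of this line responded to salt. The comparison used the 6 OE1 libraries of the 12 in the study, 3 per NaCl level. It covered the 24922 genes listed in both tables of deposited normalized counts, one for each NaCl level. OE1 carries 35Sp::OsERF106MZ in the cultivar Tainung 67 (TNG67), so the transgene is driven by the constitutive CaMV 35S promoter, and OE1 is the one overexpressing line among the samples. The TNG67 wild type (WT) groups, also at 0 and 150 mM NaCl with 3 libraries each, entered the shared estimate of the spread and a comparison at the end. Seedlings of all groups grew for 7 days on diluted Kimura B solution and then for 24 h at their NaCl level, and each replicate pooled the belowground tissue of several seedlings. The samples are labelled as roots, although the series record names terrestrial parts in its design field.

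Salt reaches a root first as a shortage of available water and then as sodium that enters the cells and displaces potassium. Roots are known to answer through the hormone abscisic acid (ABA), which induces protective proteins such as dehydrins and late embryogenesis abundant (LEA) proteins and, at high levels, restrains root growth. They also change the transporters that move sodium, potassium and water, and rice can in addition make diterpenoid phytoalexins, antimicrobial compounds whose genes respond to jasmonate and to several stresses.

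Total reads recovered from the deposited values ranged from 16326661 to 18188746 in the 3 OE1 libraries at 0 mM NaCl and from 17676991 to 22426883 in the 3 at 150 mM NaCl. Replicates correlated, on log2 reads, with at least 0.986 in the normal and 0.987 in the NaCl-treated group. Of 7 root marker identifiers, 5 were listed in both tables, namely the silicon transporters Lsi1 and Lsi2, RCc3, OsHKT1;5 and OsPHO1;2. All 5 were read in all 6 OE1 libraries, and all 5 were lower under NaCl. Genes chosen as shoot and leaf markers were read as well. The summed normalized count of 13 genes for chlorophyll a/b-binding proteins and the small subunit of Rubisco spanned 3350.5 to 5354.3 in the normal libraries and 397.74 to 672.8 in the NaCl-treated ones. Of these 13 genes, 10 fell (76.9%, against 5.84% of all genes), none rose, and none was at 0 in all 6 libraries. RBCS1 (Os12g0291100), a Rubisco small subunit gene, had normalized counts of 174, 130.2 and 113 at 0 mM NaCl and 7.99, 17.1 and 14.4 at 150 mM NaCl, and CAB2R (Os01g0600900), a chlorophyll a/b-binding protein gene, had 1100.1, 1218 and 795 against 46, 77.3 and 43.3. The groups did not overlap for either gene. Whether the samples held green tissue, and what part it would take in the results below, was not tested. In such bulk samples, fewer cells of a type and less RNA per cell cannot be told apart.

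Of the 24922 genes tested, 1659 (6.66%) were higher and 1456 (5.84%) were lower under NaCl in OE1, 3115 (12.5%) in all, with an adjusted p (Benjamini-Hochberg) under 0.05 in limma and a change of more than 1 on the log2 scale. Genes that met this rule are called differentially expressed genes (DEGs) here, and "rose" and "fell" are used of DEGs alone. By the adjusted p without the fold, 38.8% of all genes passed. At least as many passed an unadjusted p below 0.05, a cutoff that is also given for some lists below. The median log2 fold change over all genes was 0.01, and 124 DEGs rose and 96 fell beyond a log2 fold change of 3. Both NaCl groups were fully separated for 1636 of the DEGs that rose and for 1439 of those that fell, while the libraries of 40 DEGs overlapped. Separation of the 3 libraries from the 3 was common, with 49.6% of all genes showing it, and an exact two-sided permutation test of 3 against 3 libraries cannot give a p below 0.1. Some descriptions give no function, with the words hypothetical, non-protein coding, uncharacterised, unknown or predicted protein. They belonged to 465 of the 1659 DEGs that rose and 481 of the 1456 that fell, shares near the 31.6% of all genes. Values of 3 libraries are given below as normalized counts of replicates 1, 2 and 3, with the normal group before the NaCl-treated one, and a value after ± is the standard error of a log2 fold change.

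The overexpressed gene itself was no DEG of the treatment. OsERF106MZ (Os08g0537900) had normalized counts of 10262, 10125 and 9135 at 0 mM NaCl and 9621, 10547 and 9633 at 150 mM NaCl, and the groups overlapped (log2 fold change 0.01 ± 0.09, limma adjusted p = 0.92). These counts do not separate the transgene from the native copy. OsACTIN1 (Os03g0718100), which the study used as the internal control of its qPCR, had 1024, 1047 and 1190.2 at 0 mM NaCl and 729.5, 638 and 578 at 150 mM NaCl. Every NaCl-treated library was below every normal one, although the change did not reach the fold change of a DEG (log2 fold change -0.75 ± 0.09, limma adjusted p = 1.9e-06).

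The gene with the largest rise among those read at a sufficient level in both groups was Os07g0418700, a proline-rich glycoprotein gene that the annotation ties to the ABA-dependent inhibition of root growth. Its normalized counts were 56.3, 64.6 and 41.7 at 0 mM NaCl and 14558, 18506 and 17604 at 150 mM NaCl. All 3 NaCl-treated libraries were far above the normal ones, a 312-fold rise of the mean (log2 fold change 8.27 ± 0.19, limma adjusted p = 3.1e-10). Its neighbour in the annotation, Os07g0418600, carries the same description and had 764, 912 and 512 against 39603, 43818 and 47178. That was 59.7-fold higher under NaCl, again without overlap (log2 fold change 5.93 ± 0.19, limma adjusted p = 5.6e-09). How reads shared between these similar genes were counted is not given in the sources used here, so the split of the counts between them is uncertain.

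Another 6 genes made up the rest of the 8 largest rises among described DEGs without overlap. The higher OE1 group mean had to be at least 100 and the lower at least 10, so genes read less at 0 mM NaCl were left out. Os01g0627800, similar to the cytochrome P450 CYP72A5, rose from 9.93, 14.1 and 8.34 to 1332, 1241 and 965, 109-fold (log2 fold change 6.66 ± 0.21, limma adjusted p = 7.3e-13). Os08g0140300 encodes an aromatic L-amino acid decarboxylase, annotated for the serotonin made in senescence, and went from 44.1, 23.2 and 15.6 to 703, 757 and 1123, 31.1-fold (log2 fold change 5.0 ± 0.40, limma adjusted p = 8.1e-06). NIP1;1 (Os02g0232900), a nodulin 26-like intrinsic protein annotated as an arsenite transporter, rose from 69.5, 26.2 and 46.9 to 916, 1227 and 1055, 22.4-fold (log2 fold change 4.55 ± 0.28, limma adjusted p = 1.8e-07). In these 3 genes the lowest NaCl-treated library stood well above the highest normal one. A cinnamoyl-CoA reductase-like gene (Os02g0811800), of a family that provides precursors of lignin, rose from 7.72, 18.2 and 12.5 to 299, 333 and 396 (log2 fold change 4.70 ± 0.24, limma adjusted p = 3e-11). The cytochrome P450 gene Os02g0569900 had 23.2, 11.1 and 24 against 381, 375 and 855 (log2 fold change 4.68 ± 0.39, limma adjusted p = 7.9e-06), with NaCl replicate 3 above the other 2. Os10g0137300, similar to BLN1-1, had 14.3, 10.1 and 11.5 against 159.9, 407 and 430.0 (log2 fold change 4.57 ± 0.38, limma adjusted p = 4e-06), with NaCl replicate 1 below the other 2. For all 8 genes the 2 NaCl levels were without overlap, as the rule that named them required.

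**Figure D1:**
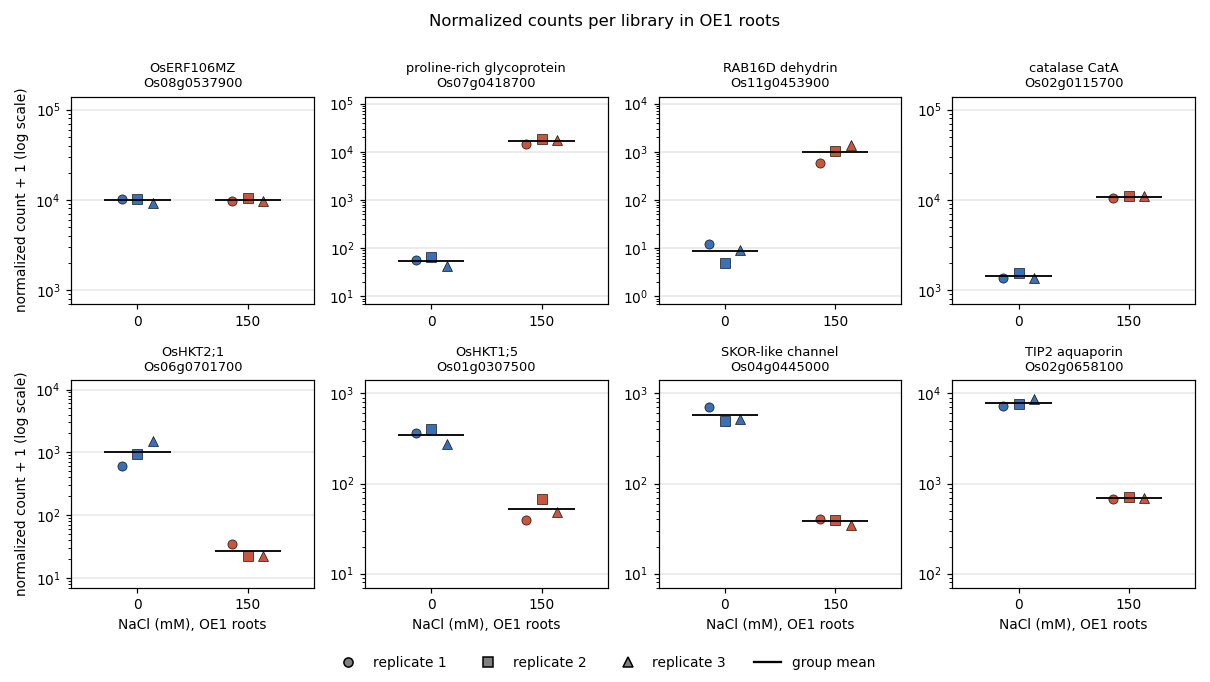
Normalized count plus 1 (log scale) of single genes in each OE1 library at 0 and 150 mM NaCl, with 1 panel per gene, the replicate shown by the marker shape and the group mean by a bar. OsERF106MZ stays between 9135 and 10547 at both NaCl levels, while the proline-rich glycoprotein, RAB16D and CatA genes lie higher and the HKT2;1, HKT1;5, SKOR-like and TIP2 genes lower in all 3 NaCl-treated libraries.

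Under the same limits, the largest fall was that of Os11g0179700, similar to dirigent proteins, a family known to guide the coupling of phenolic units. It had 714, 663 and 724 at 0 mM NaCl and 17, 7.03 and 12.8 at 150 mM NaCl, 57-fold lower and without overlap (log2 fold change -5.80 ± 0.22, limma adjusted p = 3.4e-12). Os01g0550800, a protein of unknown function with a DUF239 domain, fell from 989.8, 998 and 672 to 25, 7.03 and 22.5 (log2 fold change -5.68 ± 0.42, limma adjusted p = 4e-06). The sodium and potassium symporter gene HKT2;1 (Os06g0701700), which lets roots take up sodium when potassium is scarce, had 609, 944 and 1500.0 at 0 mM NaCl and 34, 21.1 and 21.7 at 150 mM NaCl. Its 3 normal libraries spread more than its NaCl-treated ones, and the fall of the mean was 39.8-fold (log2 fold change -5.20 ± 0.30, limma adjusted p = 1.7e-07). The GDSL lipase gene Os01g0216000 fell from 447, 357 and 516 to 16, 19.1 and 4.01 (log2 fold change -5.19 ± 0.42, limma adjusted p = 1.2e-06), and the DREPP plasma membrane polypeptide gene Os02g0285300 from 1592, 1869 and 2044 to 66, 62.3 and 51.3 (log2 fold change -4.92 ± 0.16, limma adjusted p = 1.8e-12). Os01g0355250 is described as similar to a salt stress-induced protein, yet its counts went from 372, 476 and 171 to 12, 5.02 and 14.4 (log2 fold change -4.88 ± 0.36, limma adjusted p = 1.7e-08). The lowest normal library of each of these genes was many times its highest treated one. Members of the hypersensitive-induced response family such as Os01g0588100 are membrane proteins, and this one had 2122, 1964 and 2715 against 59, 82.3 and 93.1 (log2 fold change -4.85 ± 0.35, limma adjusted p = 3.9e-06). The last of the 8 was the tonoplast aquaporin gene TIP2-3 (Os04g0550900), at 243, 305 and 325 against 14, 7.03 and 12.8 (log2 fold change -4.61 ± 0.26, limma adjusted p = 1.4e-10). In each of these 8 genes the 3 NaCl-treated libraries were the 3 lowest, as the rule that named them required.

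Among 49 genes of sodium and potassium transport, 10 (20.4%, against 5.84% of all genes) fell and 3 (6.12%, against 6.66%) rose, with a median log2 fold change of -0.13. HKT transporters were among the genes that fell. OsHKT1;5 (Os01g0307500), which retrieves sodium from the xylem sap and so keeps it from the shoot, had 359.7, 406 and 275 at 0 mM NaCl and 38, 67.3 and 47.3 at 150 mM NaCl. It was 6.82-fold lower under NaCl, with all treated libraries below all normal ones (log2 fold change -2.77 ± 0.20, limma adjusted p = 2.7e-09). OsHKT1;4 (Os04g0607600), annotated for the exclusion of sodium from leaf blades, was read at a low level, with 15.4, 18.2 and 34.4 against 6, 8.03 and 4.81, and fell without overlap (log2 fold change -1.64 ± 0.43, limma adjusted p = 0.0051). Together with HKT2;1 above, these were joined by a gene similar to the stelar potassium outward rectifier SKOR (Os04g0445000), a channel type that releases potassium into the xylem. Its counts of 702, 496 and 526 dropped to 40, 38.2 and 33.7, 15.4-fold lower and without overlap (log2 fold change -3.90 ± 0.16, limma adjusted p = 3e-12). The largest rise in the list was that of Os05g0276100, annotated as a potassium transporter of the endoplasmic reticulum, with 24.3, 24.2 and 36.5 against 94.9, 118 and 168 (log2 fold change 2.11 ± 0.40, limma adjusted p = 0.00036). The potassium transporter gene HAK16 (Os03g0575200) rose 3.53-fold, from 288, 309 and 288 to 1123, 810.4 and 1186 (log2 fold change 1.80 ± 0.26, limma adjusted p = 0.00048). In both genes all NaCl-treated libraries were above all normal ones.

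The water channel genes of the list fell or did not pass the test. Of 25 aquaporin genes matched by their description, 11 (44%, against 5.84% of all genes) fell and 0 rose, and the median log2 fold change was -0.94. At an unadjusted limma p below 0.05, 3 were higher, and neither edgeR nor DESeq2 called one higher. Of all 24922 genes, 4877 were higher at the stricter adjusted p without the fold. The words used for the list did not match NIP1;1, which rose as described above. Without normal replicate 1 of OE1, or without TNG67 replicate 3 at 0 mM NaCl or TNG67 replicate 2 at 150 mM NaCl, 1 member of the list also rose. The genes that fell were in part tonoplast intrinsic proteins, which carry water across the vacuolar membrane. A gene similar to tonoplast intrinsic protein 2 (Os02g0658100) had 7256, 7592 and 8732 at 0 mM NaCl and 676, 701 and 692 at 150 mM NaCl. The treated libraries lay close together and the mean was 11.4-fold lower (log2 fold change -3.50 ± 0.10, limma adjusted p = 1.9e-12). TIP1;2 (Os01g0975900) fell from 4126, 3185 and 3959 to 298, 484 and 428 (log2 fold change -3.24 ± 0.20, limma adjusted p = 6.1e-07), and TIP2;2 (Os06g0336200) from 14507, 13335 and 14529.5 to 4827, 6374 and 5429 (log2 fold change -1.36 ± 0.10, limma adjusted p = 4.4e-08). Lsi1 (Os02g0745100), an aquaporin-like channel that takes up silicon, is counted in the list and had 20038, 19266 and 19086 at 0 mM NaCl and 5196, 6229.9 and 5412 at 150 mM NaCl (log2 fold change -1.80 ± 0.10, limma adjusted p = 7.8e-10). None of these genes had overlapping groups. Lsi2 (Os03g0107300), which exports the silicon from root cells towards the stele and is no aquaporin, was 2.77-fold lower, at 23815, 23266 and 21749 against 8059.7, 9272 and 7497 (log2 fold change -1.48 ± 0.12, limma adjusted p = 8.5e-07).

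The lists of ABA metabolism and signalling were short. Of the 4 identifiers for ABA synthesis, 2 were listed in both tables, and neither was a DEG in limma, edgeR or DESeq2. The zeaxanthin epoxidase gene ZEP (Os04g0448900), an early enzyme of the pathway, had 458, 428 and 470.4 at 0 mM NaCl and 728, 805 and 712 at 150 mM NaCl, without overlap but within a log2 fold change of 1 (log2 fold change 0.72 ± 0.08, limma adjusted p = 1.4e-06). Os12g0617400, described as Viviparous-14, the carotenoid cleavage enzyme of maize, had overlapping counts of 21, 25.2 and 45.9 against 30, 30.1 and 26.5 (log2 fold change -0.01 ± 0.26, limma adjusted p = 0.98). Of 2 genes for ABA 8'-hydroxylases, which break ABA down, 1 rose and neither fell. This was ABA8ox2 (Os08g0472800), with 51.9, 50.5 and 56.3 at 0 mM NaCl and 159.9, 217 and 198 at 150 mM NaCl (log2 fold change 1.83 ± 0.15, limma adjusted p = 2.2e-08). Clade A protein phosphatases 2C, which hold ABA signalling in check, had 6 members tested, with a median log2 fold change of 0.77 against 0.01 for all genes. Of these 6 genes, 1 rose (16.7%, against 6.66% of all genes), or 2 without OE1 normal replicate 2, NaCl replicate 1 or NaCl replicate 3. It was PP2C68 (Os09g0325700), at 26.5, 16.2 and 11.5 against 93.9, 165 and 85, 6.35-fold higher and without overlap (log2 fold change 2.62 ± 0.29, limma adjusted p = 7.5e-07).

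Of 14 LEA and dehydrin genes, 6 (42.9%, against 6.66% of all genes) rose and 1 fell (7.14%, near 5.84%), with a median log2 fold change of 0.29. These proteins protect membranes and other proteins when cells lose water. RAB16D (Os11g0453900) was barely read at 0 mM NaCl, with 11, 4.04 and 8.34, and reached 587, 1025 and 1398 at 150 mM NaCl. The treated libraries spread between themselves, yet the lowest of them was far above the normal ones (log2 fold change 6.84 ± 0.41, limma adjusted p = 2.4e-07). RAB21 (Os11g0454300), a close relative, had 8.83, 4.04 and 8.34 against 371, 919 and 1042 (log2 fold change 6.52 ± 0.64, limma adjusted p = 1.8e-05). The RAB16 genes are near-identical in parts, so the division of reads between these 2 is uncertain. LEA3-1 (Os05g0542500), a group 3 LEA protein gene, rose 12.8-fold, from 248, 284 and 288 to 3157, 3692 and 3614 (log2 fold change 3.67 ± 0.09, limma adjusted p = 1.3e-14). Os01g0705200, an LEA repeat protein gene, rose from 45.2, 54.5 and 41.7 to 245, 360.5 and 297 (log2 fold change 2.64 ± 0.21, limma adjusted p = 4.7e-08). In the opposite direction, Os01g0109000, similar to a group 3 LEA protein, had 178, 134 and 129 against 51, 78.3 and 68.2 (log2 fold change -1.15 ± 0.18, limma adjusted p = 4.4e-05), and without NaCl replicate 1 its log2 fold change of -0.98 was no longer that of a DEG, which left 0 members that fell.

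Compatible solutes, which balance the water potential of the cell, had DEGs of both directions, with 3 of 16 genes higher (18.8%) and 4 lower (25%), against 6.66% and 5.84% of all genes, and a median of -0.31. P5CS2 (Os01g0848200) encodes the enzyme of the first step of proline synthesis and rose from 105, 125 and 132 to 296, 260.1 and 229 (log2 fold change 1.11 ± 0.22, limma adjusted p = 0.0009). Its paralog P5CS1 (Os05g0455500) had 3970.1, 4034 and 4049 against 5226, 4872 and 5165, higher in every treated library but within a log2 fold change of 1 (log2 fold change 0.34 ± 0.06, limma adjusted p = 6.9e-05). A galactinol synthase-like gene (Os03g0316200), of the raffinose pathway, rose 3.02-fold (log2 fold change 1.57 ± 0.13, limma adjusted p = 1.8e-08), and the trehalose-6-phosphate phosphatase gene TPP3 (Os07g0624600) rose 3.14-fold (log2 fold change 1.63 ± 0.26, limma adjusted p = 4.7e-05). By contrast, Os08g0414700, similar to trehalose-6-phosphate synthase, fell from 2519, 2529.8 and 2314 to 785, 902 and 918 without overlap (log2 fold change -1.5 ± 0.08, limma adjusted p = 8.2e-11).

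**Figure D2:**
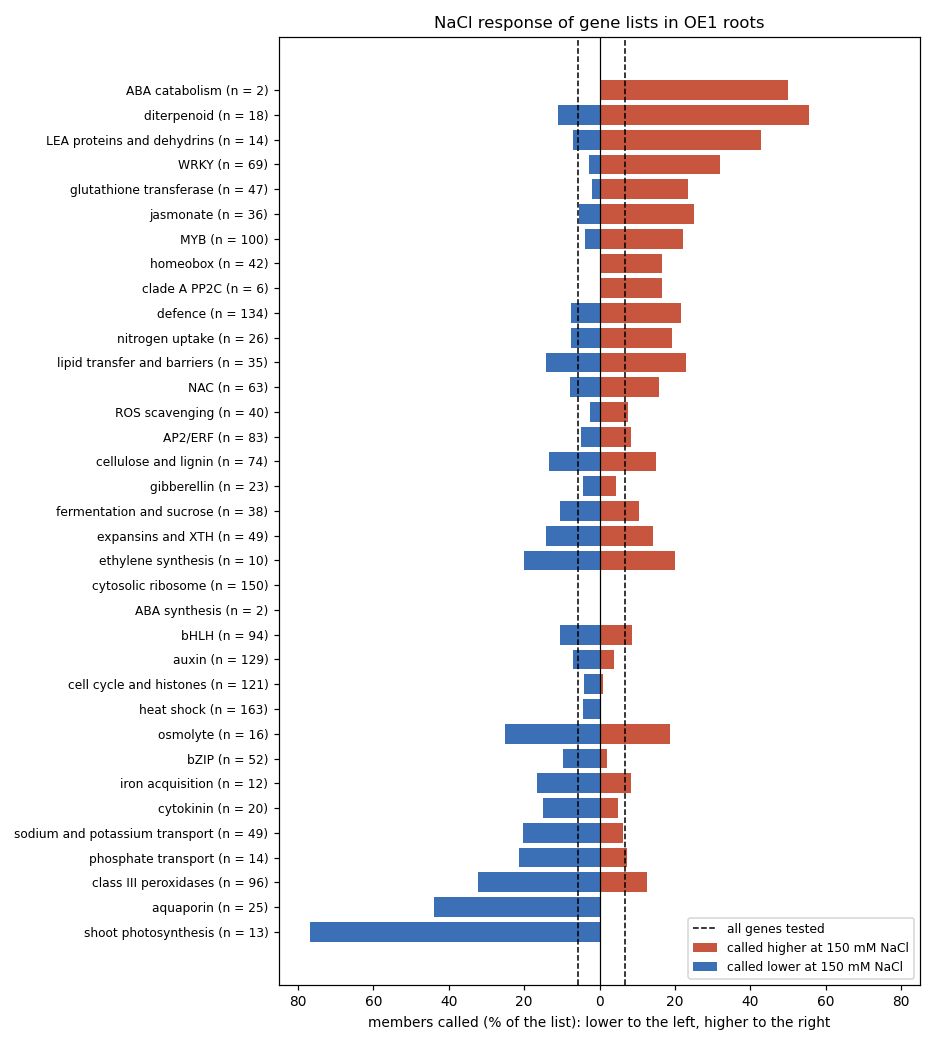
Share of the members of each of 35 gene lists (vertical axis, with the number of members) that were DEGs in OE1 roots at 150 against 0 mM NaCl (horizontal axis, % of the list), with members that rose to the right, members that fell to the left and dashed lines at the 6.66% and 5.84% of all genes. The diterpenoid list reaches farthest to the right, at 55.6%, and the shoot photosynthesis list farthest to the left, at 76.9%, while the ribosomal list has no bar.

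Among 14 genes of phosphate uptake and sensing, 1 rose (7.14%) and 3 fell (21.4%), against 6.66% and 5.84% of all genes. Os04g0573000, an SPX-MFS protein gene of phosphate homeostasis, had 0, 3.03 and 2.09 at 0 mM NaCl and 38, 30.1 and 45.7 at 150 mM NaCl, a rise whose size depends on the pseudocount because the normal libraries are close to 0 (limma adjusted p = 4.7e-07). Another SPX-MFS gene, Os02g0678200, fell from 157, 168 and 164 to 54, 34.1 and 44.9 (log2 fold change -1.88 ± 0.18, limma adjusted p = 1.1e-07). These 2 members of a single family thus moved in opposite directions, both without overlap. The phosphate transporter gene PT8 (Os10g0444700) had 2234, 2688 and 2373 against 4248, 4078 and 4044, higher in all 3 treated libraries but short of the threshold (log2 fold change 0.77 ± 0.08, limma adjusted p = 7e-07). OsPHO1;2 (Os02g0809800), which loads phosphate into the xylem and is one of the root markers rather than a member of the phosphate list, fell 2.37-fold, from 7301, 6663 and 7536 to 3425, 2817 and 2819 (log2 fold change -1.25 ± 0.09, limma adjusted p = 4.3e-09).

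Of 26 genes of nitrate and ammonium uptake and assimilation, 5 rose (19.2%) and 2 fell (7.69%), against 6.66% and 5.84% of all genes. The number that rose was 3 without OE1 normal replicate 1 or 2, and the number that fell was 1 without normal replicate 2 or NaCl replicate 2. An NADH-dependent glutamate synthase-like gene (Os05g0555600), of ammonium assimilation, rose from 124, 153 and 77.2 to 516, 345 and 387 (log2 fold change 1.84 ± 0.24, limma adjusted p = 2.7e-05), and the ammonium transporter gene AMT3;2 (Os03g0838400) from 23.2, 26.2 and 18.8 to 60, 84.4 and 69.8 (log2 fold change 1.61 ± 0.19, limma adjusted p = 2.3e-06). The high-affinity nitrate transporter gene Os02g0112600 fell from 151, 150.4 and 159 to 37, 15.1 and 48.1 (log2 fold change -2.31 ± 0.30, limma adjusted p = 1.7e-05). All 3 were without overlap. In the iron list, 1 of 12 genes rose (8.33%) and 2 fell (16.7%). No member rose without OE1 normal replicate 2, NaCl replicate 1 or NaCl replicate 3, and 1 fell without normal replicate 2. NAAT1 (Os02g0306401), an enzyme of the synthesis of mugineic acid iron chelators, had 266, 217 and 263 at 0 mM NaCl and 29, 25.1 and 56.2 at 150 mM NaCl. It was 6.76-fold lower, and the highest treated library was well below the lowest normal one (log2 fold change -2.81 ± 0.22, limma adjusted p = 1.3e-08).

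Cell wall genes held DEGs of both directions. Of 49 expansin and xyloglucan endotransglucosylase (XTH) genes, which loosen the wall as cells grow, 7 rose and 7 fell (14.3% each, against 6.66% and 5.84% of all genes), with a median of -0.01. Restricted to genes with a mean normalized count of at least 20, the number that rose was 3. EXPA7 (Os03g0822000), an alpha-expansin, rose from 171, 132 and 143 to 294, 378 and 320.1 (log2 fold change 1.15 ± 0.14, limma adjusted p = 3.4e-06). A gene similar to expansin A15 (Os03g0155700) was near the limit of detection at 0 mM NaCl, with 3.31, 2.02 and 2.09, against 24, 27.1 and 20.9 at 150 mM NaCl (log2 fold change 2.86 ± 0.39, limma adjusted p = 1e-05). XTH8 (Os08g0237000) was among the more abundant transcripts and fell from 13069.9, 12387 and 12579.9 to 3759, 5056 and 4003 (log2 fold change -1.58 ± 0.11, limma adjusted p = 2.4e-08). The groups were apart in all 3 genes. The XTH-like gene Os04g0604900 fell from 48.6, 194 and 122 to 20, 9.04 and 12, with a wide spread at 0 mM NaCl (log2 fold change -2.92 ± 0.53, limma adjusted p = 0.00046), and it was no DEG with a pseudocount of 0.1.

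Class III peroxidases, secreted enzymes that stiffen walls and act on reactive oxygen, held more DEGs that fell than DEGs that rose, with 31 of 96 (32.3%, against 5.84% of all genes) lower and 12 higher (12.5%, against 6.66%). Their median log2 fold change was -0.30. Os10g0109300 had 5327, 5396 and 6532 at 0 mM NaCl and 359, 391 and 431 at 150 mM NaCl, 14.6-fold lower (log2 fold change -3.86 ± 0.15, limma adjusted p = 2.9e-09). At the other end, Os01g0327100 rose from 30.9, 27.3 and 37.6 to 302, 461 and 477, 13-fold (log2 fold change 3.64 ± 0.17, limma adjusted p = 1.7e-11). Neither gene had overlapping groups. In the list of cellulose synthases and lignin enzymes, 11 of 74 rose (14.9%) and 10 fell (13.5%), against 6.66% and 5.84% of all genes. The largest rise was that of the cinnamoyl-CoA reductase-like gene above, and the largest fall that of CSLA4 (Os03g0169500), a cellulose synthase-like gene, from 394, 422 and 386 to 84.9, 71.3 and 89.1 (log2 fold change -2.28 ± 0.15, limma adjusted p = 7e-10).

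Of 121 cyclin, histone and replication genes, 1 rose (0.826%) and 5 fell (4.13%), against 6.66% and 5.84% of all genes, while the median was -0.41. The number that fell was 1 without NaCl replicate 3, 2 without normal replicate 3, 3 without normal replicate 2 and 9 without normal replicate 1. The histone H2B gene Os08g0490900 fell from 2335, 2468 and 2589 to 1064, 1162 and 1035 (log2 fold change -1.18 ± 0.13, limma adjusted p = 1.5e-05), and another H2B gene, Os05g0460475, rose from 26.5, 14.1 and 21.9 to 58, 58.2 and 61.8 (log2 fold change 1.51 ± 0.25, limma adjusted p = 8e-05). Both were without overlap, although histone H2B genes are alike in sequence and may share reads. None of 150 cytosolic ribosomal protein genes was a DEG in limma, edgeR or DESeq2, and their median was -0.18. At an unadjusted limma p below 0.05, 7 of them were higher and 78 lower. By the adjusted p without the fold, which is stricter, 38.8% of all 24922 genes passed, 4877 higher and 4790 lower. How many of all genes passed the unadjusted p in each direction is not given here. Leaving out normal replicate 2 of OE1 or replicate 1 of TNG67 at 0 mM NaCl gave 1 ribosomal gene that rose, and leaving out normal replicate 3 of OE1 gave 1 that fell.

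Jasmonate genes leaned higher. Of 36 genes of jasmonate synthesis and its JAZ repressors, 9 (25%, against 6.66% of all genes) rose. The number that fell was 2 (5.56%, near the 5.84% of all genes), or 1 without NaCl replicate 1, and the median was 0.36. AOS2 (Os03g0225900), an allene oxide synthase of jasmonate synthesis, had 57.4, 51.5 and 45.9 at 0 mM NaCl and 189.9, 211 and 433 at 150 mM NaCl. NaCl replicate 3 stood above the other 2, and all treated libraries were above the normal ones (log2 fold change 2.31 ± 0.28, limma adjusted p = 4.6e-05). The lipoxygenase gene LOX9 (Os08g0509100), whose enzyme family acts just before allene oxide synthase, also had NaCl replicate 3 as its highest library, with 21, 19.2 and 7.3 against 59, 87.4 and 201 (log2 fold change 2.73 ± 0.46, limma adjusted p = 0.00091). The repressor gene JAZ8 (Os09g0439200) rose evenly, from 151, 138 and 139 to 306, 355 and 351 (log2 fold change 1.23 ± 0.12, limma adjusted p = 1.8e-07). AOS4 (Os02g0218800), also annotated as an allene oxide synthase, fell from 379.6, 425 and 366 to 102, 84.4 and 73.8 without overlap (log2 fold change -2.17 ± 0.20, limma adjusted p = 4.6e-07).

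In ethylene synthesis, 2 of 10 genes rose and 2 fell (20% each, against 6.66% and 5.84% of all genes), but none rose without NaCl replicate 3, and 1 fell without NaCl replicate 2. The ACC oxidase-like gene Os02g0771600, of the last step of ethylene synthesis, had 53, 62.6 and 53.2 against 101, 116 and 167 (log2 fold change 1.14 ± 0.19, limma adjusted p = 0.0001), with a log2 fold change of 0.94 without NaCl replicate 3. The ACC synthase family gene Os01g0192900 fell from 124, 174 and 168 to 39, 30.1 and 40.1 (log2 fold change -2.06 ± 0.29, limma adjusted p = 3.8e-05), with all treated libraries below the normal ones. Among 20 cytokinin genes, 1 rose (5%) and 3 fell (15%). The gene that rose, CKX4 (Os01g0940000), encodes a cytokinin oxidase annotated for crown root formation and had 151, 125 and 217 against 401, 442 and 374 (log2 fold change 1.33 ± 0.15, limma adjusted p = 1.4e-06), while the gene similar to cytokinin dehydrogenase 1 (Os01g0187600) fell from 186, 203 and 156 to 56, 69.3 and 58.6 (log2 fold change -1.55 ± 0.20, limma adjusted p = 5.7e-06). These 2 genes of cytokinin breakdown therefore went in opposite directions. The A-type response regulator gene RR2 (Os02g0557800), a negative regulator of cytokinin signalling, had 1014, 1091 and 977 against 636, 615 and 578, lower in every treated library but within a log2 fold change of 1 (log2 fold change -0.75 ± 0.11, limma adjusted p = 3.3e-05).

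Of 129 auxin genes, 5 rose (3.88%) and 9 fell (6.98%), shares near the 6.66% and 5.84% of all genes, and the median was 0.08. Without OE1 normal replicate 3, 8 were higher. IAA20 (Os06g0166500), a repressor of auxin response, rose from 534, 496 and 325 to 1392, 1841 and 1388 (log2 fold change 1.79 ± 0.20, limma adjusted p = 3.7e-05), and GH3-8 (Os07g0592600), which conjugates auxin to amino acids, from 104, 93.9 and 87.6 to 198, 271 and 224 (log2 fold change 1.26 ± 0.14, limma adjusted p = 6.7e-07). The SAUR family gene Os01g0924966 fell from 153, 193 and 193 to 43, 40.2 and 37.7 (log2 fold change -2.12 ± 0.18, limma adjusted p = 3.5e-08). None of the 3 had overlapping groups. Of 23 gibberellin genes, 1 rose and 1 fell (4.35% each). The gene that rose, Os07g0592000, was close to the threshold, with 24.3, 23.2 and 40.7 against 52, 65.3 and 61.8 (log2 fold change 1.04 ± 0.24, limma adjusted p = 0.0017). Its log2 fold change was 0.93 without normal replicate 1, 0.90 without normal replicate 2 and 0.97 without NaCl replicate 2, so it was no DEG then. The number of gibberellin genes that rose was 0 without normal replicate 1 or NaCl replicate 2 and 2 without NaCl replicate 1, and the number that fell was 3 without normal replicate 3 and 2 without NaCl replicate 3. The gene that fell, Os01g0571166, similar to gibberellin responsive 1, had 309, 378 and 215 against 95.9, 62.3 and 124 (log2 fold change -1.68 ± 0.31, limma adjusted p = 0.001).

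Diterpenoid and other terpene genes had the highest median of the lists, 2.07. Of these 18 genes, 10 rose (55.6%, against 6.66% of all genes) and 2 fell (11.1%, against 5.84%). The route starts with copalyl diphosphate synthases, goes on to kaurene synthase-like (KSL) enzymes that form the ring systems, and ends with cytochrome P450 enzymes that oxidise them. CPS4 (Os04g0178300), which makes syn-copalyl diphosphate for the momilactones, had 316, 113 and 277 at 0 mM NaCl and 2069, 1645 and 4897 at 150 mM NaCl. All treated libraries were above the normal ones, with replicate 3 the highest, and the mean was 12.2-fold higher (log2 fold change 3.57 ± 0.50, limma adjusted p = 0.00049). KSL4 (Os04g0179700), the next momilactone enzyme, had 5.52, 0 and 2.09 against 69, 106 and 581 (limma adjusted p = 0.00054). KSL7 (Os02g0570400) had 6.62, 3.03 and 6.26 against 246, 394 and 1425 (limma adjusted p = 9.4e-05), and KSL10 (Os12g0491800) had 4.41, 0 and 2.09 against 47, 70.3 and 221 (limma adjusted p = 0.00018). These 3 KSL genes were at or near 0 reads at 0 mM NaCl, so the size of their rise depends on the pseudocount and no fold is given. KSL genes are also alike in sequence, and reads between them may be shared.

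Cytochrome P450 genes of the route rose as well. CYP701A8 (Os06g0569500), described as an ent-kaurene oxidase of phytoalexin synthesis, had 14.3, 7.07 and 10.4 at 0 mM NaCl and 91.9, 172 and 662 at 150 mM NaCl (log2 fold change 4.29 ± 0.65, limma adjusted p = 0.00068). The phytoalexin P450 gene Os07g0217600 had 5.52, 4.04 and 8.34 against 59, 185 and 546 (log2 fold change 4.76 ± 0.66, limma adjusted p = 0.00037). In both, every treated library was above every normal one, and the treated libraries differed widely among themselves. NaCl replicate 3 was the highest OE1 library in 8 of the 10 diterpenoid genes that rose and in 7 of the 9 jasmonate genes that rose, against 660 of all 1659 DEGs that rose. Without that library, 10 diterpenoid genes rose and 8 jasmonate genes did. A limonene synthase gene, Os04g0340300, fell from 482, 337 and 242 to 17, 71.3 and 53.8 (log2 fold change -3.04 ± 0.50, limma adjusted p = 0.0011). The number of terpene genes that fell was 1 when any of normal replicates 1 and 2, NaCl replicates 1 and 2 or TNG67 replicate 2 at 0 mM NaCl was left out.

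**Figure D3:**
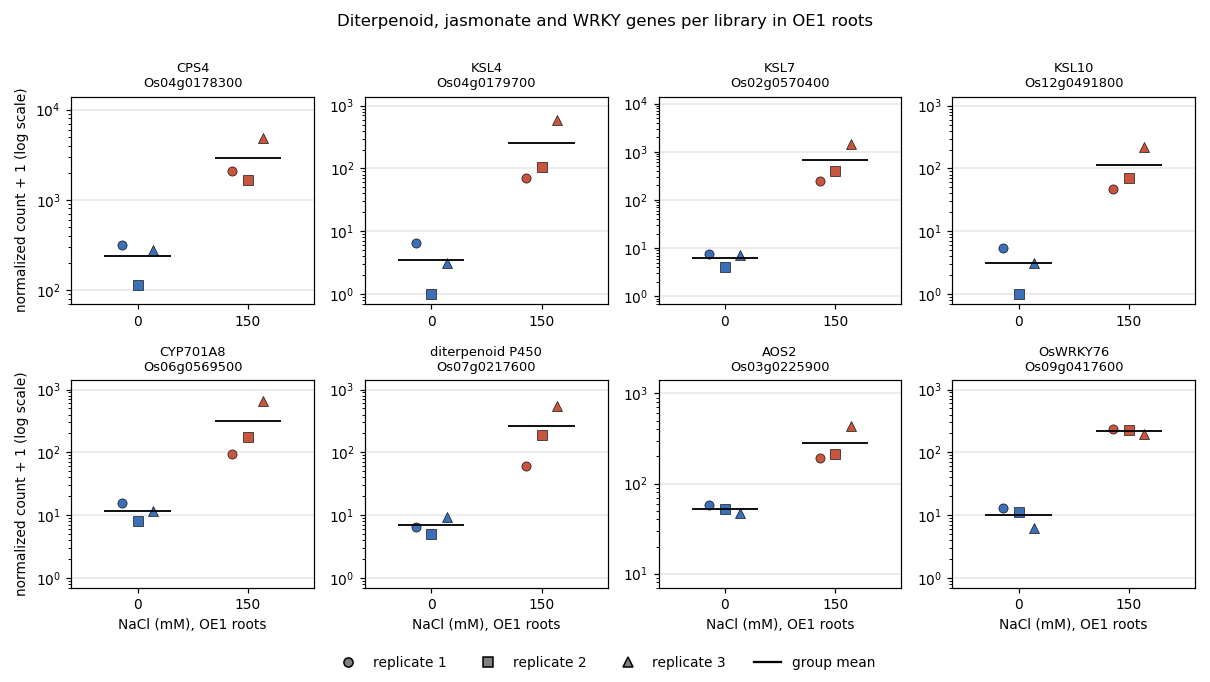
Normalized count plus 1 (log scale) of 6 diterpenoid genes, AOS2 of jasmonate synthesis and OsWRKY76 in each OE1 library at 0 and 150 mM NaCl, with 1 panel per gene, the replicate shown by the marker shape and the group mean by a bar. The treated libraries lie above the normal ones in all 8 panels, and replicate 3 is the highest treated library in all but the OsWRKY76 panel.

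Of 134 chitinase, glucanase and other defence protein genes, 29 (21.6%) rose and 10 (7.46%) fell, against 6.66% and 5.84% of all genes. Os01g0382000, similar to the pathogenesis-related protein PRB1-2, was read in 1 of the 3 normal libraries, with 5.52, 0 and 0, and had 94.9, 185 and 257 at 150 mM NaCl (limma adjusted p = 6.4e-05). A PR1a-like gene, Os07g0129300, went the other way, from 349, 221 and 245 to 11, 60.3 and 38.5 (log2 fold change -3.12 ± 0.60, limma adjusted p = 0.0032). The genes were without overlap, so members of the PR1 type both rose and fell. A beta-1,3-glucanase-like gene (Os07g0539900), abundant at both NaCl levels, rose from 7695, 5681 and 7259 to 17432, 16867 and 18367 (log2 fold change 1.36 ± 0.13, limma adjusted p = 2.7e-06).

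Scavengers of reactive oxygen held 4 DEGs among 40 genes, 3 higher (7.5%, near the 6.66% of all genes) and 1 lower (2.5%, against 5.84%), or 3 lower without OE1 normal replicate 3. The catalase gene CatA (Os02g0115700), whose enzyme breaks down hydrogen peroxide, had 1346, 1555 and 1341 at 0 mM NaCl and 10489, 11126 and 10935 at 150 mM NaCl. The libraries agreed closely within each group, and the mean was 7.67-fold higher (log2 fold change 2.94 ± 0.13, limma adjusted p = 1.3e-09). An alternative oxidase gene (Os04g0600300), of cyanide-resistant respiration in mitochondria, rose from 56.3, 45.4 and 44.9 to 255, 238 and 263 (log2 fold change 2.35 ± 0.15, limma adjusted p = 4.7e-10). The gene that fell, GER4 (Os01g0284500), is a germin-like protein described as similar to a nectarin with superoxide dismutase activity, and went from 21770.4, 21356 and 20676 to 6719, 7173 and 7549.8 (log2 fold change -1.57 ± 0.20, limma adjusted p = 0.00019). Glutathione S-transferases, which attach glutathione to toxic compounds, rose in 11 of 47 cases (23.4%, against 6.66% of all genes) and fell in 1, or 2 without normal replicate 3 or NaCl replicate 2. Os01g0692100 rose from 18.8, 19.2 and 18.8 to 99.9, 127 and 113 (log2 fold change 2.51 ± 0.28, limma adjusted p = 6.9e-07), while Os01g0371500 fell from 541, 694 and 813 to 77.9, 77.3 and 73.8 (log2 fold change -3.12 ± 0.12, limma adjusted p = 8.6e-13). Neither overlapped between NaCl levels.

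In the list of fermentation and sucrose cleavage, 4 of 38 genes rose and 4 fell (10.5% each, against 6.66% and 5.84% of all genes). The non-symbiotic hemoglobins, which bind oxygen and remove nitric oxide, were lower. NSHB2 (Os03g0226200) fell from 1519, 2128 and 2071 to 332, 201 and 303 (log2 fold change -2.79 ± 0.20, limma adjusted p = 9.1e-07), and NSHB1 (Os03g0233900) from 3945, 5199.8 and 4802 to 997, 892 and 1036 (log2 fold change -2.25 ± 0.10, limma adjusted p = 2e-11). Both were without overlap, and their reads may be shared in part. The cell wall invertase gene CIN1 (Os02g0534400), which splits sucrose outside the cell, rose from 104, 129 and 102 to 319, 313 and 306 (log2 fold change 1.48 ± 0.11, limma adjusted p = 4.6e-09). CAD6 (Os04g0229100) was matched by the words for alcohol dehydrogenase but is a sinapyl alcohol dehydrogenase-like gene, an enzyme type of lignin synthesis, and rose 3.03-fold (log2 fold change 1.58 ± 0.18, limma adjusted p = 8.9e-07). Among 163 heat shock proteins and co-chaperones, 0 rose and 7 fell (4.29%, near the 5.84% of all genes), and the median was -0.02. None was called higher by edgeR or DESeq2, and 32 were higher at an unadjusted limma p below 0.05. At the stricter adjusted p without the fold, 4877 of all 24922 genes were higher. Leaving out normal replicate 1, normal replicate 2 or NaCl replicate 1 gave 1 member that rose. HSP18.8 (Os07g0517100), a small heat shock protein gene, had 643, 712 and 697 against 273, 304 and 261 (log2 fold change -1.29 ± 0.09, limma adjusted p = 2.8e-09), and the DnaJ-like gene Os05g0427900 had 73.9, 57.5 and 63.6 against 7, 13.1 and 9.63 (log2 fold change -2.63 ± 0.28, limma adjusted p = 4.6e-07). In both, all treated libraries were the lower ones.

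Among the transcription factor families, WRKY and MYB held the most genes that rose. Of 69 WRKY genes, 22 (31.9%, against 6.66% of all genes) rose and 2 fell (2.9%, against 5.84%). The number that fell was 4 without NaCl replicate 2 and 1 without NaCl replicate 3. OsWRKY76 (Os09g0417600), annotated as a repressor in pathogen defence, had 12.1, 10.1 and 5.22 at 0 mM NaCl and 234, 229 and 192 at 150 mM NaCl. Its treated libraries lay close together and the mean was 23.8-fold higher (log2 fold change 4.50 ± 0.24, limma adjusted p = 3.7e-10). Os01g0624700, similar to WRKY 12, fell from 65.1, 88.8 and 37.6 to 19, 21.1 and 11.2 (log2 fold change -1.80 ± 0.32, limma adjusted p = 0.00019). Of 100 MYB genes, 22 (22%, against 6.66% of all genes) rose and 4 (4%, near the 5.84% of all genes) fell. An R2R3 MYB gene (Os02g0695200) led those that rose, at 15.4, 17.2 and 15.6 against 167, 163 and 214 (log2 fold change 3.41 ± 0.18, limma adjusted p = 7.4e-11). A MYB71-like gene (Os09g0431300) fell from 367, 389 and 317 to 109, 165 and 97.1 (log2 fold change -1.56 ± 0.18, limma adjusted p = 3e-06). For these 4 genes the NaCl levels did not overlap.

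Of 63 NAC genes, 10 rose (15.9%) and 5 fell (7.94%), against 6.66% and 5.84% of all genes. Os03g0777000 is similar to ANAC019, which responds to ABA in Arabidopsis, and rose from 7.72, 4.04 and 5.22 to 37, 51.2 and 87.5 (log2 fold change 3.11 ± 0.33, limma adjusted p = 4.8e-07). The NAC gene Os02g0810900, similar to ANAC021/22, fell from 573, 728 and 536 to 115, 94.4 and 138 (log2 fold change -2.40 ± 0.22, limma adjusted p = 2e-06). Homeobox genes gave 7 of 42 higher (16.7%) and 0 lower in limma, or 1 lower without normal replicate 1 or NaCl replicate 2. Both edgeR and DESeq2 called 0 lower, and 7 were lower at an unadjusted limma p below 0.05. At the stricter adjusted p without the fold, 4790 of all 24922 genes were lower. Among the homeobox genes that rose was WOX11 (Os07g0684900), which promotes crown root development, with 104, 83.8 and 76.1 at 0 mM NaCl and 347, 445 and 396 at 150 mM NaCl. It was 4.5-fold higher without overlap (log2 fold change 2.16 ± 0.14, limma adjusted p = 7e-10). The bHLH family had 8 of 94 higher (8.51%) and 10 lower (10.6%), among them Os04g0301500 with 33.1, 31.3 and 13.6 against 138, 229 and 101 (log2 fold change 2.56 ± 0.38, limma adjusted p = 4.9e-05) and the phytochrome-interacting factor Os07g0143200 with 69.5, 55.5 and 61.5 against 9.99, 20.1 and 24.1 (log2 fold change -1.81 ± 0.27, limma adjusted p = 3.3e-05).

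In the AP2/ERF family, to which OsERF106MZ belongs, 7 of 83 rose (8.43%) and 4 fell (4.82%), shares near the 6.66% and 5.84% of all genes. The RAP2.6-like gene Os08g0474000 varied widely at 0 mM NaCl, with 43, 10.1 and 0, against 101, 176 and 101 at 150 mM NaCl (limma adjusted p = 0.021). It was no DEG with a pseudocount of 0.1, in a fit of the 6 OE1 libraries alone, or without NaCl replicate 2, where its log2 fold change was 3.70. An ERF domain gene, Os02g0638650, fell from 131, 109 and 129 to 19, 40.2 and 26.5 (log2 fold change -2.13 ± 0.23, limma adjusted p = 5.5e-07). The bZIP family had 1 of 52 higher (1.92%) and 5 lower (9.62%). The gene that rose, Os01g0859300, is annotated for stress response and ABA signal transduction, and had 211, 174 and 180.5 at 0 mM NaCl and 968, 975 and 859 at 150 mM NaCl. All treated libraries were above the normal ones, 4.96-fold in the mean (log2 fold change 2.31 ± 0.12, limma adjusted p = 7.4e-11). Another bZIP gene, Os02g0247100, fell 7.13-fold, from 169, 235 and 241 to 27, 36.2 and 27.3 (log2 fold change -2.79 ± 0.19, limma adjusted p = 1.3e-09).

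Lipid transfer proteins and proteins of root barriers had DEGs of both directions, with 8 of 35 higher (22.9%) and 5 lower (14.3%), against 6.66% and 5.84% of all genes. Os07g0290200 rose from 907, 755 and 884 to 3307, 4116 and 3448 (log2 fold change 2.09 ± 0.10, limma adjusted p = 3.2e-10) and Os10g0552200 fell from 175, 213 and 303 to 11, 9.04 and 16.8 (log2 fold change -4.13 ± 0.34, limma adjusted p = 5.9e-08), both described as lipid transfer proteins and both without overlap. By normalized count, which was not divided by gene length, the 5 most abundant DEGs that rose were the proline-rich glycoprotein gene Os07g0418600, the lectin gene Osr40c1 (Os03g0327600), the family 28 glycoside hydrolase gene Os06g0106800, the Gda-1-like gene Os01g0550300 and the beta-1,3-glucanase-like gene above. Osr40c1 rose from 8975, 9693 and 9421 to 22528, 23655 and 20712 (log2 fold change 1.25 ± 0.07, limma adjusted p = 4.8e-11), and Os01g0550300 from 8977, 8753 and 8407 to 18482, 18834 and 18493 (log2 fold change 1.09 ± 0.06, limma adjusted p = 1.2e-10). Os06g0106800, of a family that cuts pectin, was near the threshold at 11211, 8643 and 10734 against 21751, 21425 and 18517 (log2 fold change 1.02 ± 0.11, limma adjusted p = 8.4e-06). Its log2 fold change was 0.90 without normal replicate 2, 0.98 without NaCl replicate 1 and 0.99 without NaCl replicate 2, and it was no DEG then.

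The 5 most abundant DEGs that fell were a metallothionein gene, Lsi2, GER4, RCc3 and a gene without a known function. The metallothionein-like gene MT-1-4b (Os12g0571100), annotated as a scavenger of reactive oxygen, had 92923, 106682 and 77309 at 0 mM NaCl and 37252, 33880.0 and 35229.7 at 150 mM NaCl. It remained abundant under NaCl and was 2.6-fold lower, without overlap (log2 fold change -1.37 ± 0.16, limma adjusted p = 3.7e-05). RCc3 (Os02g0662000), known as a root-specific gene, fell from 19789, 22466 and 22530.1 to 6826, 9221 and 7449 (log2 fold change -1.47 ± 0.11, limma adjusted p = 8.7e-08), and Os09g0484200, a hypothetical protein, from 22415, 24144 and 25528 to 3376, 5411 and 3589.6 (log2 fold change -2.57 ± 0.20, limma adjusted p = 4.1e-06).

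The same NaCl treatment was next set beside that of TNG67, which shares no library with it. In TNG67, 4804 genes (19.3%) were DEGs, 2375 higher (9.53%) and 2429 lower (9.75%). The DEGs of OE1 were mostly also DEGs of TNG67, with 1353 shared genes higher, which is 81.6% of the OE1 list and 57.0% of the TNG67 list. Shared genes that fell numbered 1150, which is 79.0% of the OE1 list and 47.3% of the TNG67 list, and 4 genes were DEGs in opposite directions. The difference of the OE1 and TNG67 responses, tested as the interaction in limma at an adjusted p below 0.05, passed for 2833 genes (11.4%). Without replicate 1 of TNG67 at 0 mM NaCl it passed for 1765 genes, and without normal replicate 1 of OE1 for 1805. Of the 3115 DEGs of OE1, 631 had such a difference, and of the 608 that were not DEGs in TNG67, 119 did.

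Several genes responded more in OE1 than in TNG67. CatA rose in both lines, with a log2 fold change of 2.94 in OE1 and 1.68 in TNG67, where its counts were 2401, 2346 and 3518 at 0 mM NaCl and 8879.8, 8160.5 and 9062 at 150 mM NaCl. The responses differed by 1.26 ± 0.18, limma adjusted p = 0.0011. NAAT1 fell in OE1 by -2.81 and was no DEG in TNG67, with counts of 142, 124 and 151 against 69.9, 79.1 and 75.4 there (difference -1.92 ± 0.31, limma adjusted p = 0.00098). The TNG67 groups of NAAT1 thus lay closer together than those of OE1. CatA and the BLN1-1-like gene Os10g0137300 were lower in every OE1 library than in every TNG67 library at 0 mM NaCl. Os10g0137300 had 125, 147 and 215 against 791, 460.0 and 430.3 in TNG67, and its response was larger in OE1 by 2.81 ± 0.54, limma adjusted p = 0.01. For the cinnamoyl-CoA reductase-like gene Os02g0811800, with 29.1, 21.2 and 30 against 192, 182 and 166 in TNG67, the difference was 1.99 ± 0.33, limma adjusted p = 0.0013. Every NaCl-treated OE1 library of this gene was higher than every TNG67 library. The expansin A15-like gene Os03g0155700 had 14.5, 10.6 and 15 against 12.8, 6.84 and 19.1 in TNG67, a low level at both NaCl levels, and the difference was 3.00 ± 0.55, limma adjusted p = 0.0024. The bZIP gene Os01g0859300 (difference 0.78 ± 0.17, limma adjusted p = 0.0084) rose in both lines. The ACC oxidase-like gene Os02g0771600 (difference 1.21 ± 0.27, limma adjusted p = 0.009) was no DEG in TNG67, with 166, 113 and 109 against 115, 136 and 114. At 0 mM NaCl every OE1 library of this gene was lower than every TNG67 library, and at 150 mM NaCl the 2 lines overlapped. The potassium transporter gene Os05g0276100 had 0 reads in all 6 TNG67 libraries, which allows up to 3 reads per library, so its difference of 2.11 (limma adjusted p = 0.023) is its OE1 response alone, and it passed in 8 of the 12 fits that left out 1 library, with an adjusted p of 0.089 without NaCl replicate 3 of OE1.

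Other genes responded less in OE1. RCc3 had 20867, 19476 and 19909.8 at 0 mM NaCl and 2221, 2376 and 2914 at 150 mM NaCl in TNG67, a log2 fold change of -3.01 against -1.47 in OE1 (difference 1.54 ± 0.16, limma adjusted p = 7.2e-05). In both lines it fell, and the TNG67 libraries at 150 mM NaCl were below those of OE1. AOS2 had 98.5, 113 and 70.8 against 1529.9, 1934 and 1499 in TNG67, and its rise was smaller in OE1 (difference -1.82 ± 0.40, limma adjusted p = 0.015). JAZ8 (difference -0.75 ± 0.17, limma adjusted p = 0.0098) and WOX11 (difference -0.78 ± 0.20, limma adjusted p = 0.017) also rose in both lines and less in OE1, and both were higher in OE1 than in TNG67 in all libraries at 0 mM NaCl. The ABA gene ABA8ox2 also rose less in OE1 (difference -0.76 ± 0.22, limma adjusted p = 0.03), and ZEP, no DEG in OE1, had a log2 fold change of 0.72 there against 1.12 in TNG67 (difference -0.39 ± 0.12, limma adjusted p = 0.04). These last differences passed in 11 of 12 fits that left out 1 library for WOX11, in 7 for ABA8ox2 and in 4 for ZEP, whose largest adjusted p values were 0.053 and 0.087 without NaCl replicate 1 of OE1 and 0.10 without TNG67 replicate 2 at 0 mM NaCl. TIP2;2 fell less in OE1 (difference 0.85 ± 0.14, limma adjusted p = 0.0022). RR2 was no DEG in OE1, at a log2 fold change of -0.75, and was a DEG in TNG67 at -1.85 (difference 1.10 ± 0.16, limma adjusted p = 0.00045). For the diterpenoid genes CPS4, KSL4, KSL7, KSL10, CYP701A8 and Os07g0217600, the log2 fold change was smaller in OE1 in each case, but no difference passed, with adjusted p between 0.07 and 0.51. The proline-rich glycoprotein genes (adjusted p = 0.13 for Os07g0418700 and 0.44 for Os07g0418600) and LEA3-1 (adjusted p = 0.89) did not pass either in limma. RBCS1 fell by more in TNG67, with a log2 fold change of -7.05 against -3.34 (difference 3.71 ± 0.69, limma adjusted p = 0.0053), as did CAB2R (difference 1.79 ± 0.30, limma adjusted p = 0.0031). The 3 TNG67 libraries at 150 mM NaCl had 0.853, 0 and 4.77 for RBCS1, so the size of its difference depends on the pseudocount.

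**Figure D4:**
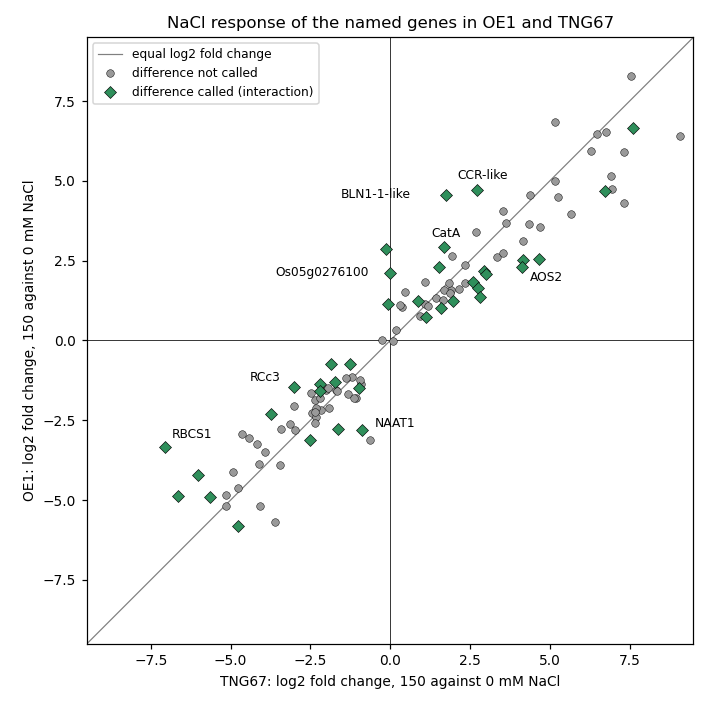
Log2 fold change at 150 against 0 mM NaCl in OE1 (vertical axis) and in TNG67 (horizontal axis) for the 117 genes named in the report, with the line of equal change and with genes whose difference passed the interaction test shown as diamonds. Most genes lie near the line in the same direction in both lines, while CatA, NAAT1 and the BLN1-1-like gene lie farther from 0 in OE1 and RBCS1 and RCc3 farther from 0 in TNG67.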

How the data were processed

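Sequencing of the KAPA mRNA libraries, trimming with Trimmomatic 0.38 and alignment to IRGSP-1.0 with HISAT2 2.1.0 were the authors' work, and CASAVA is also in the submitters' processing notes. The counting tool, its use of strand, the normalization and the filter on genes are not given in the sources used here. The authors deposited 1 table per NaCl level, with signal values that are read counts divided by a library size factor, and a group mean beside them that was not used. Every value was a whole multiple of 1 read (100% within 0.001 reads), so reads were recovered. Up to a common factor, the deposited scaling was within 0.092% of median-ratio size factors computed over all 12 libraries. Genes listed in 1 table only, 658 at 0 mM and 1031 at 150 mM NaCl, were left out of the tests.

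Log2 of the value plus a pseudocount of 1 was fitted with limma 3.58.1 in R 4.3.3 over 12 libraries and 4 groups, with a mean-variance trend, robust moderation and Benjamini-Hochberg adjustment. In simulated data, 200 of 24922 genes, all with a mean of at least 20, were changed between the OE1 groups. For OE1, 99% of the 3-fold and 100% of the 6-fold changes were recovered, with 1.49% false calls. The simulation left all other genes unchanged between these groups, while 12.5% of genes were DEGs in the data, so the rates may differ there. On recovered reads, edgeR 4.0.16 called 1623 genes higher and 1563 lower. DESeq2 1.42.0, other scalings and filters, a test against a log2 fold change of 1, a replicate block and each library left out in turn were alternatives.

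Functions came from the deposited descriptions. Of 13723 genes with an Entrez identifier, 13517 were found in the RefSeq table of assembly ASM3414082v1, which names 1987. The 35 gene lists and the genes were chosen with earlier results of these data known. By rule, the text names OsERF106MZ, OsACTIN1 and the 8 largest rises and falls among described DEGs without overlap whose higher OE1 group mean was at least 100 and lower at least 10. It also names the largest rise and fall of each list with a higher group mean of at least 50, and the 5 most abundant DEGs in each direction. A further 33 genes were named for their role after their values were seen, and 3 as root markers.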

Additional observations from a re-analysis of the deposited data

Results flagged for a closer look

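For 37 of the 117 named genes the NaCl response of OE1 differed from that of TNG67 in the limma interaction (adjusted p below 0.05), against 11.4% of all genes. The values below are the OE1 minus the TNG67 log2 fold change, and the response was smaller in OE1 in 24 of the 37. The genes were named mainly for their OE1 response or after their values were seen, so these counts do not describe all genes. For 21 genes the adjusted p stayed below 0.05 in all 12 fits that left out 1 library. Among these, the log2 fold change was below 0 and nearer to 0 in OE1 for OsACTIN1 (Os03g0718100) at 0.50, CAB2R (Os01g0600900) at 1.79, RCc3 (Os02g0662000) at 1.54, TIP2;2 (Os06g0336200) at 0.85, XTH8 (Os08g0237000) at 0.62, RR2 (Os02g0557800) at 1.10 and RBCS1 (Os12g0291100) at 3.71. Among these, the log2 fold change of OE1 was above 0 and higher than in TNG67 for the cinnamoyl-CoA reductase-like gene (Os02g0811800) at 1.99, the BLN1-1-like gene (Os10g0137300) at 2.81, Os02g0771600 at 1.21, CatA (Os02g0115700) at 1.26, Os01g0859300 at 0.78, Osr40c1 (Os03g0327600) at 0.39 and Os03g0155700 at 3.00. Among these, the log2 fold change was below 0 and farther from 0 in OE1 for Os08g0414700 at -0.52 and NAAT1 (Os02g0306401) at -1.92. Among these, the log2 fold change was above 0 and nearer to 0 in OE1 for Os01g0692100 at -1.64, Os07g0290200 at -0.92, Os07g0539900 at -1.45, AOS2 (Os03g0225900) at -1.82 and JAZ8 (Os09g0439200) at -0.75. The other 16 genes lost the call when some single library was left out, with a largest adjusted p of 0.137. In that set, the log2 fold change was above 0 and nearer to 0 in OE1 for the CYP72A5-like gene (Os01g0627800) at -0.96, Os02g0569900 at -2.06, ABA8ox2 (Os08g0472800) at -0.76, TPP3 (Os07g0624600) at -1.14, WOX11 (Os07g0684900) at -0.78, Os04g0301500 at -2.11, Os06g0106800 at -0.56 and ZEP (Os04g0448900) at -0.39. In that set, the log2 fold change was below 0 and farther from 0 in OE1 for Os11g0179700 at -1.04, Os01g0371500 at -0.62 and NSHB2 (Os03g0226200) at -1.14. In that set, the log2 fold change was below 0 and nearer to 0 in OE1 for Os02g0285300 at 0.73, Os01g0355250 at 1.78, Os02g0112600 at 1.42 and HSP18.8 (Os07g0517100) at 0.43. In that set, the log2 fold change of OE1 was above 0 and higher than in TNG67 for Os05g0276100 at 2.11.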

How the results depend on the processing

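The number of genes called in OE1 was within 1.5 times the reported 1659 higher and 1456 lower under every scaling, filter, pseudocount and tool tried, among them edgeR with 1623 and 1563, library size alone with 1756 and 1450, DESeq2 with 1656 and 1471, and the 6 OE1 libraries alone with 1643 and 1460. Only the fold rule moved it. A test against a log2 fold change of 1 left 641 higher and 485 lower, 556 and 408 shared with TNG67, and 98 and 79 members of the gene lists in place of 212 and 173. Without a fold threshold there were 4877 higher and 4790 lower, 4008 and 3957 shared, and 522 and 505 list members. Leaving out each library gave 1593 to 1679 higher and 1390 to 1538 lower genes, and 1765 to 3432 genes for the difference from TNG67, against 2833. Of the 110 named genes called, 104 kept their call under all but the test against a log2 fold change of 1, and none changed direction. Of 1470 recomputed list counts, 158 moved by over 1.5 times. Libraries near 0 reads limit the size, though not the direction, of the rises of KSL4, KSL10, Os01g0382000 and Os04g0573000, and the size of the differences from TNG67 of RBCS1, Os01g0355250 and Os05g0276100.

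With the replicate number as a block, 1655 genes were higher and 1451 lower, 1353 and 1150 shared with TNG67, and 2311 genes differed from TNG67. Deviations from the group means were also correlated between the normal and NaCl-treated OE1 libraries, over genes with a mean of at least 20. Same-numbered libraries gave -0.15, -0.04 and -0.02, and differently numbered ones -0.06 to 0.09. These values show no pairing by number in OE1, but they cannot exclude a shared harvest or batch.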

Other observations

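Some genes were listed in 1 of the 2 tables and so entered no test. Of the 1031 genes listed at 150 mM NaCl only, 241 had a mean of at least 10 normalized counts in OE1 and 6 a mean of at least 100. Os03g0347500, similar to the senescence-associated protein SAG29, had 277.8, 513.1 and 290.4 normalized counts in the 3 NaCl-treated OE1 libraries. The ent-copalyl diphosphate synthase gene Os02g0571100, of phytoalexin synthesis, had 18.99, 133.6 and 374.7, with replicate 3 again the highest. Os03g0168100, an LEA repeat protein gene, had 88.94, 127.5 and 142.0, and the acid phosphatase-like gene Os01g0191200 had 197.9, 209.9 and 168.5.

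Of the 658 genes listed at 0 mM NaCl only, 186 had a mean of at least 10 in OE1 and 4 a mean of at least 100. The B12D-like gene Os07g0604700, annotated for flooding tolerance during germination, had 196.4, 168.6 and 207.6 normalized counts in the 3 normal libraries. Os07g0126301, of the allergen V5 family, had 16.55, 269.5 and 25.03, so that replicate 2 alone carried most of its reads. These genes are given as values, since no value at the other NaCl level was used here.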
